A study of Mus musculus with 6 samples.

Results

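ERK brakes are the genes that a cell uses to limit signalling through the RAS, RAF, MEK and ERK kinase cascade. The 10 genes described here were chosen by name, with earlier results of these data known. They are the dual-specificity phosphatase genes Dusp1, Dusp2, Dusp4, Dusp5 and Dusp6 and the Sprouty genes Spry1 and Spry2. The others are the Spred genes Spred1 and Spred2 and the ETS transcription factor gene Etv5. All 10 of 10 had a probe set on the array, out of 18194 genes with one, and they were covered by 24 probe sets. All 10 passed the filter on low values, 12565 genes being tested in all.

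The arrays were hybridised with RNA of mouse leukemias driven by activated NOTCH1, with 3 arrays labelled Sh2b3 WT and 3 labelled Sh2b3 KO. The title and genotype of the KO samples name Sh2b3, while their source field reads Sh2b-/-; they were taken as Sh2b3 knockout. Lineage-depleted marrow of C57BL6 donors or of Sh2b3 knockout donors, 8 weeks old, was infected with the MigR1-ΔE-Notch1 retrovirus in both groups. Infected Lin-Sca1+ cells, 50000 per animal, went into irradiated C57BL6 recipients, so every leukemia carried the same NOTCH1 transgene and grew in a host that kept its own cells. The strain is labelled C57BL6 for the WT samples and not labelled for the KO samples, and the age of recipients is not given in the sources used here. The labels call the arrays biological replicates but also speak of RNA taken in triplicate, without tying an array to an animal. The p-values thus reflect only how these arrays vary, part of which may be technical. Sh2b3 encodes LNK, an adaptor that damps cytokine receptor and JAK kinase signalling, and the comparison asks which transcripts differ when it is missing.

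ERK is switched on by phosphorylation of a threonine and a tyrosine, and dual-specificity phosphatases remove both phosphates. DUSP1, DUSP2, DUSP4 and DUSP5 act in the nucleus, and DUSP6 acts on ERK in the cytoplasm. DUSP5 and DUSP6 are selective for ERK, whereas DUSP1 also acts on the stress kinases p38 and JNK. Sprouty and Spred proteins act further up, between receptor, RAS and RAF, and Spred proteins bring the RAS inhibitor neurofibromin to the membrane. Many of these genes are themselves transcribed in response to ERK, so that their RNA is often used as a readout of the pathway. ETV5 is an ETS factor whose gene is induced by ERK signalling in many tissues.

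Values are log2 signals of 1 probe set a gene, the most intense over the 6 arrays, and differences are KO minus WT on the log2 scale. They were not compared in level between genes, since probe sets differ in sensitivity. A gene is called low here where its mean lay below 2.75, the 60th percentile of all probe sets, a range in which these values crowd together. The most intense Sh2b3 probe set read 4.25, 4.83 and 4.08 in WT and 2.29, 2.24 and 2.29 in KO, lower on every KO array. Its difference was -2.11, and with the mean over the probe sets of Sh2b3 it was -1.07. WT arrays 1 and 2 were nearly alike: over 6725 genes their differences had an SD of 0.234, while the other pairs of arrays had 0.503 to 0.689. A fit with these 2 arrays averaged into 1 was also made. Of the T lineage markers, Cd3d read between 12.13 and 12.63 and Cd8a between 9.88 and 11.39. Cd4 read between 2.23 and 4.63, and lay below 2.75 on WT array 3 and KO array 3, at 2.44 and 2.23. In bulk RNA, fewer cells of a type and less RNA per cell cannot be told apart.

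The stretches just before 3 of the genes are shown because they include the members with the clearest separation of the groups in opposite directions, Dusp1 and Dusp6, and the 1 member with paired CArG boxes, Dusp5. Each is the 250 bases before the RefSeq start of the gene on build GRCm38.p6, read along the gene's own strand. That of Dusp1 lies at chr17:26508473-26508722 on the minus strand, that of Dusp5 at chr19:53528895-53529144 and that of Dusp6 at chr10:99262981-99263230, both on the plus strand. Capitals mark matches, on either strand, to any of the motifs searched.
Dusp1 promoter: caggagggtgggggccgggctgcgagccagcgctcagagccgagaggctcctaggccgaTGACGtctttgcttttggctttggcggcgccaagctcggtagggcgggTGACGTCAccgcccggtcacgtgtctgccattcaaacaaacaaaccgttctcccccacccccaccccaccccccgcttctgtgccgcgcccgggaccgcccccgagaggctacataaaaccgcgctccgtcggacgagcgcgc
Dusp5 promoter: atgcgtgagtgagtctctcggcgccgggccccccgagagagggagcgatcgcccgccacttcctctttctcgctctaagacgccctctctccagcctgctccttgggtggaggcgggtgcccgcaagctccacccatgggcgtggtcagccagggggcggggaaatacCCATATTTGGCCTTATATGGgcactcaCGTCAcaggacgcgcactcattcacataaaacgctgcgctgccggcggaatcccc
Dusp6 promoter: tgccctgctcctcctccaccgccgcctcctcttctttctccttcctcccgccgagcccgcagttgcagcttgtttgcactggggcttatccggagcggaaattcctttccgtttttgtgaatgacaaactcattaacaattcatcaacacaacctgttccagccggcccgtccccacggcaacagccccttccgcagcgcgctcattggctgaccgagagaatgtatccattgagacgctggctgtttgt

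The motifs were the cyclic AMP response element TGACGTCA and its shorter part TGACG, the AP-1 site TGANTCA and the STAT site TTCNNNGAA. The others were CCGGAA, a form of ETS site, and the CArG box, to which serum response factor binds. Shorter or other ETS sites around GGAA were not searched. Dusp1 held the full response element 143 to 136 bases before its start, where 1.55% of 32851 promoter entries of this length have one. The shorter TGACG matched at 3 places in Dusp1, of which 2 lie inside the full element, and 17.8% of all entries held it. Dusp5 held 2 CArG boxes side by side, 82 to 73 and 72 to 63 bases before its start, against 1.47% of entries with at least 1. Dusp5 and Spred2 each had 1 match to TGACG. No motif of the set matched in the windows of Dusp2, Dusp6, Spry1, Spry2, Spred1 or either entry of Etv5. The AP-1 site, CCGGAA and the STAT site, held by 6.75%, 12% and 7.02% of all entries, were in none of the 9 members with an entry. A match is a description of the letters, and an absent match says only that those letters are not in this window. Dusp4 was without an entry.

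No member passed the threshold for a difference between KO and WT. With limma, 0 of 10 members and 0 of 12565 genes, 0%, had an adjusted p under 0.05. The lowest adjusted p among members was 0.629. Sh2b3, the deleted gene, did not pass either, with an adjusted p of 0.158 by limma. At an unadjusted p under 0.05 there were 2 members, Dusp1 with a higher and Dusp6 with a lower KO mean, against 982 of all genes, 7.82% (3.30% higher and 4.51% lower). The groups did not overlap for 3 members, Dusp1, Dusp2 and Dusp6, and for 1732 of all genes, 13.8%. Among members 2 had a higher and 8 a lower mean in KO, with a median difference of -0.10, beside -0.01 over all genes tested. Of all 12565 genes, 6043 had a higher and 6522 a lower KO mean. With WT arrays 1 and 2 averaged, Dusp1 and Dusp6 were again the 2 members at an unadjusted p under 0.05, beside 4.0% of all genes.

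**Figure D1:**
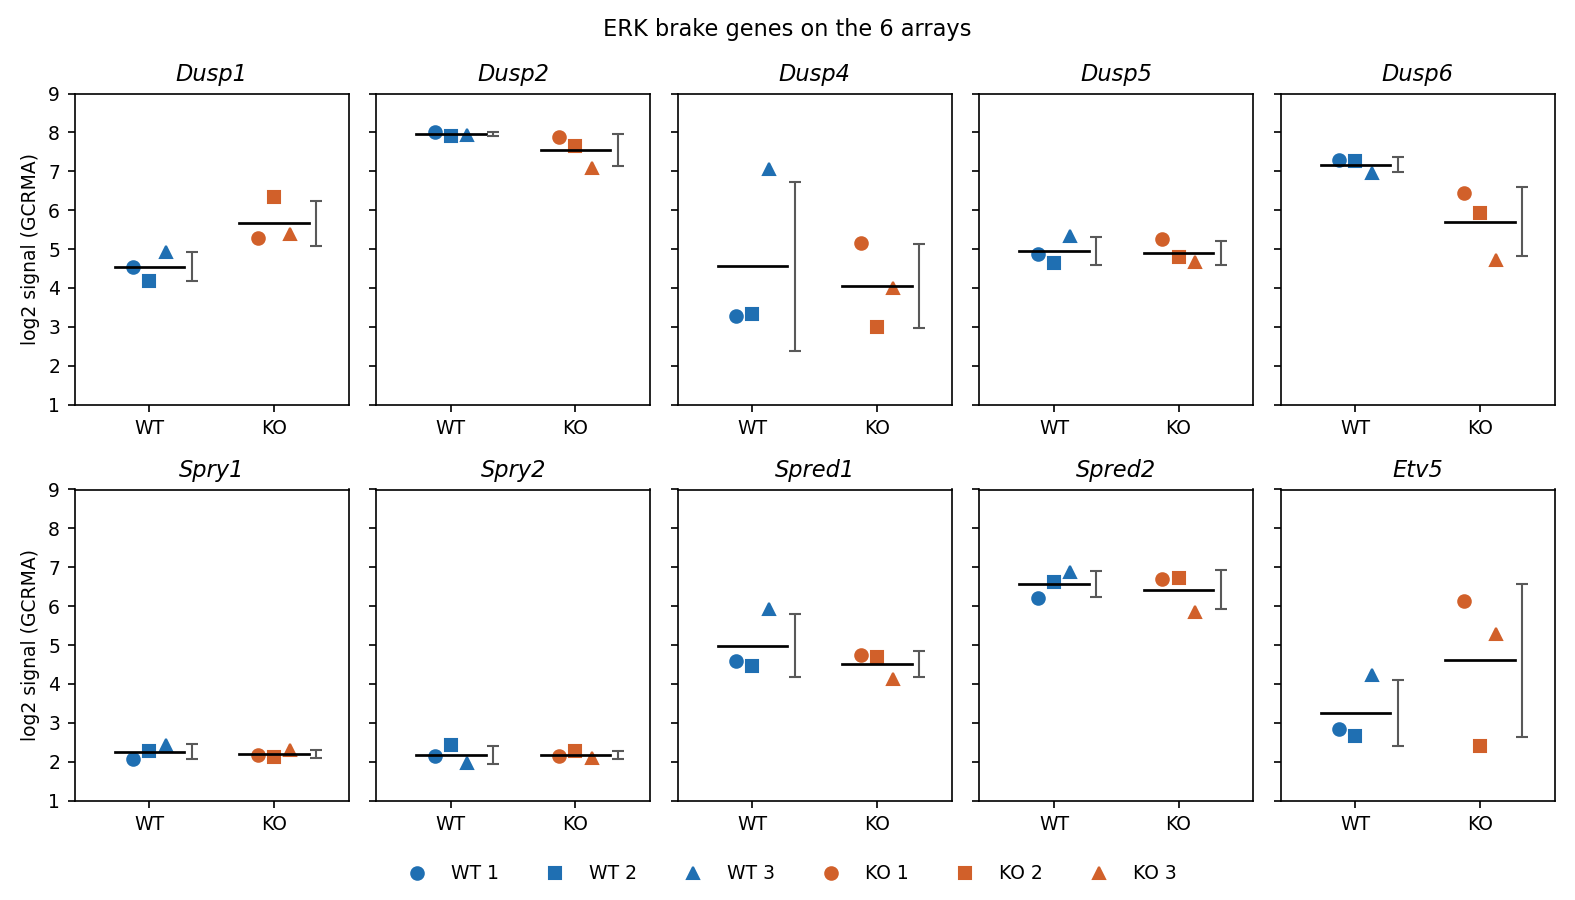
Log2 signal of each of the 10 genes on the 6 arrays, WT in blue and KO in orange, with the symbol giving the replicate number, black bars the group means and grey bars the SD (n = 3). The KO points of Dusp6 lie below all WT points and those of Dusp1 above them, Dusp4 has 1 high WT array at 7.07, and Spry1 and Spry2 lie near 2 on every array.

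Dusp6, the cytoplasmic ERK phosphatase, gave the widest difference of the phosphatases. It read 7.30, 7.26 and 6.96 on WT arrays 1, 2 and 3 and 6.45, 5.94 and 4.72 on KO arrays 1, 2 and 3. The groups did not overlap, the WT arrays lay close together and the KO arrays were spread over a range wider than the gap between the groups. The means were 7.17 ± 0.19 in WT and 5.70 ± 0.89 in KO (SD, n = 3). The difference was -1.47 with a standard error of 0.415, a 95% confidence interval of -2.43 to -0.51 and an adjusted p of 0.629 by limma. An exact permutation test, two-sided, gave a p of 0.1, as low as 3 against 3 can reach. KO array 3 held the lowest value: without it the difference was -0.98, and the KO points that were left still lay below WT.

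Dusp1, the gene of a nuclear phosphatase that is itself an immediate early gene, went the other way. It read 4.54, 4.17 and 4.92 in WT and 5.29, 6.33 and 5.38 in KO. Every KO array was above every WT array and KO array 2 stood highest. The means were 4.54 ± 0.37 and 5.67 ± 0.58 (SD, n = 3), a difference of 1.12 with a standard error of 0.360, a 95% confidence interval of 0.29 to 1.95 and an adjusted p of 0.629 by limma. The exact permutation p was again 0.1. Without KO array 2 the difference was 0.79.

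Dusp2, whose nuclear product was first known as PAC1 of activated lymphocytes, was the third member without overlap. It read 8.01, 7.91 and 7.93 in WT and 7.88, 7.65 and 7.09 in KO. The gap between the lowest WT and the highest KO array was small beside the spread of the KO arrays. The difference was -0.41 with a 95% confidence interval of -0.93 to 0.11 and an adjusted p of 0.682 by limma. Without KO array 3 it was -0.18.

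Dusp4 varied more over the 6 arrays than any other member, and not with genotype. It read 3.29, 3.32 and 7.07 on WT arrays 1, 2 and 3 and 5.15, 2.99 and 4.01 on the KO arrays. WT array 3 was far above the others, and KO array 1 stood between. The difference was -0.51 with a 95% confidence interval of -2.84 to 1.82 (adjusted p = 0.910 by limma). Its direction turned without WT array 3, to 0.75, and with WT arrays 1 and 2 averaged it was -1.14. Dusp5, the nuclear ERK-selective phosphatase, read 4.87, 4.63 and 5.34 in WT and 5.26, 4.80 and 4.67 in KO, with complete overlap. Its difference of -0.04 had a 95% confidence interval of -0.73 to 0.65, which still holds changes of modest size. Across the 5 phosphatase genes 1 KO mean was higher and 4 were lower, with a median of -0.41 and 0 past the threshold.

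**Figure D2:**
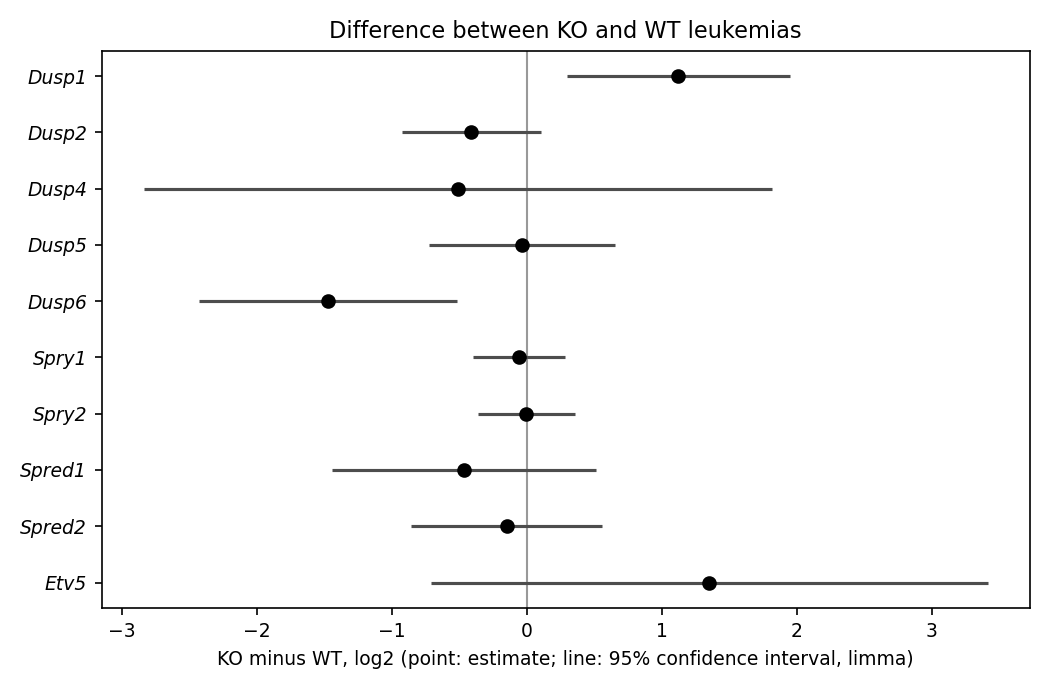
Difference between KO and WT on the log2 scale for each of the 10 genes, as the limma estimate with its 95% confidence interval. The intervals of Dusp1 and Dusp6 lie to either side of 0 before adjustment over 12565 genes, and those of Dusp4 and Etv5 are the widest, from -2.84 to 1.82 and from -0.71 to 3.41.

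The Sprouty genes were low on every array. Spry1 read 2.06, 2.28 and 2.44 in WT and 2.18, 2.12 and 2.31 in KO. The more intense probe set of Spry2 read 2.15, 2.43 and 1.96 in WT and 2.15, 2.28 and 2.10 in KO, and the other probe set read between 1.51 and 1.92 over the 6 arrays. All these values lie in the crowded bottom of the scale, and WT and KO overlapped. The differences were -0.06 for Spry1 and close to 0 for Spry2, and at this signal a change could be missed.

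Spred1 had 8 probe sets, of which the most intense read 4.58, 4.45 and 5.92 in WT and 4.74, 4.69 and 4.13 in KO. WT array 3 stood highest, as it did for Dusp4, and the other WT arrays lay among the KO arrays. The second probe set gave the same picture, with 3.71, 3.75 and 5.64 in WT and 4.24, 3.58 and 3.47 in KO. WT array 3 was also highest on 3 of the dimmer ones, which read 3.17, 3.06 and 2.01 there. The difference on the most intense probe set was -0.46 (95% confidence interval -1.44 to 0.52, adjusted p = 0.783 by limma), without WT array 3 it was 0.00, and with WT arrays 1 and 2 averaged it was -0.70. Of the 8 probe sets, 5 had means under 2.75, and all 8 differences were below 0.

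Spred2 had 5 probe sets. The most intense read 6.22, 6.63 and 6.88 in WT and 6.69, 6.73 and 5.86 in KO, where KO array 3 was lowest and the other KO arrays lay within the WT range. The difference was -0.15 with a 95% confidence interval of -0.86 to 0.55. The next probe set read 2.85, 3.03 and 3.22 in WT and 2.83, 4.33 and 3.04 in KO, so that the 2 probe sets placed KO array 2 differently. The difference on this dimmer probe set was 0.37, of opposite sign. Over the Sprouty and Spred genes together the KO mean was lower in 4 of 4, with a median of -0.10 and 0 past the threshold. Over all 12565 genes 6522 KO means were lower. The direction of each of the 4 turned in 1 or more alternatives, and Spry1 and Spry2 were low.

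Etv5 differed widely between arrays of the same genotype. On its most intense probe set it read 2.85, 2.67 and 4.24 in WT and 6.14, 2.40 and 5.28 in KO. KO arrays 1 and 3 were above all WT arrays, KO array 2 was below them, and WT array 3 stood between. The means were 3.25 ± 0.86 and 4.61 ± 1.96 (SD, n = 3). The difference was 1.35 with a standard error of 0.895, a 95% confidence interval of -0.71 to 3.41 and an adjusted p of 0.712 by limma. Without KO array 2 it was 2.46, with an adjusted p of 0.483, and without KO array 1 it was 0.59. The other probe sets were low, between 2.07 and 2.80 and between 2.02 and 2.53, and did not show the high values of KO array 3, where they read 2.47 and 2.13. On both of them KO array 1 was again the highest and KO array 2 the lowest. With the mean over the 3 probe sets the difference was 0.45.

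**Figure D3:**
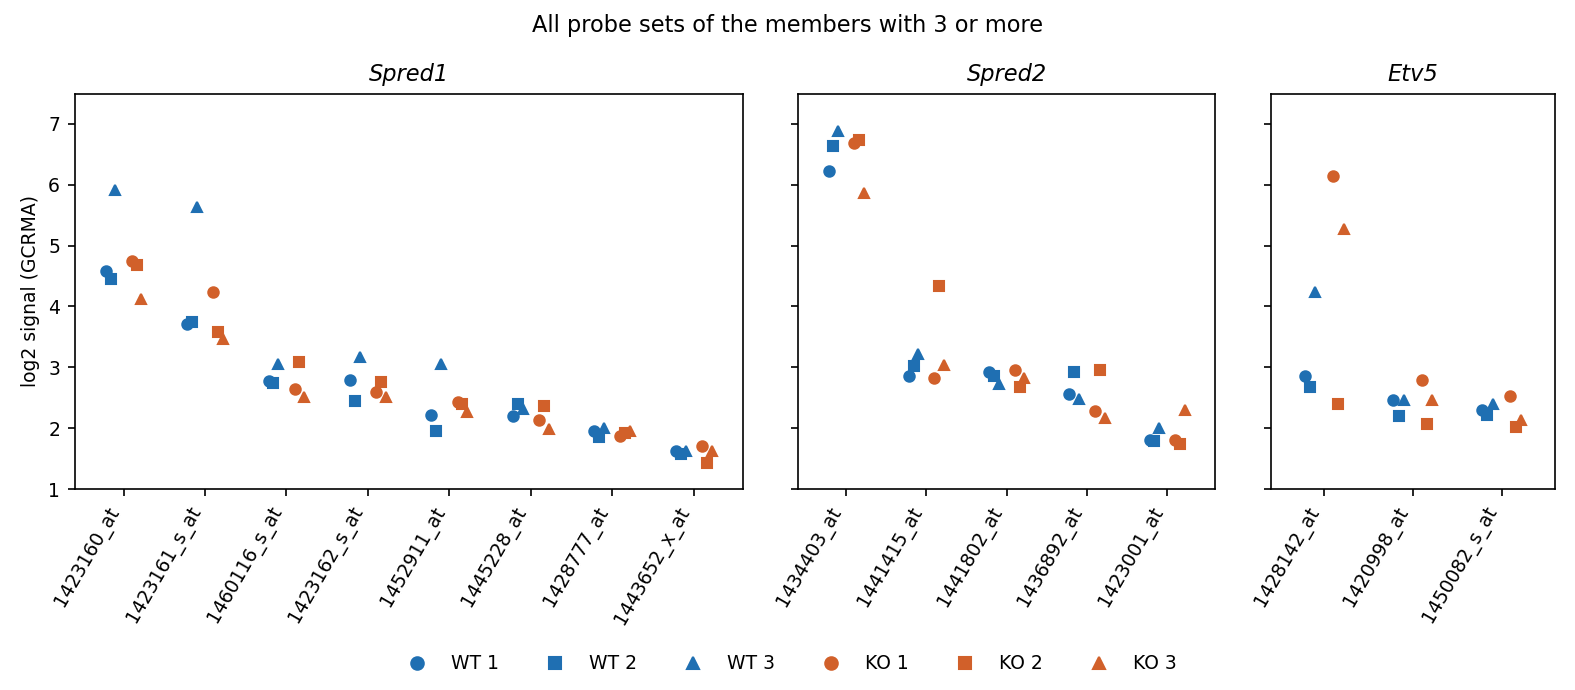
Log2 signal of every probe set of Spred1 (8), Spred2 (5) and Etv5 (3) on the 6 arrays, WT in blue and KO in orange, sorted by mean. WT array 3 is highest on the 2 most intense probe sets of Spred1, at 5.92 and 5.64. On the most intense probe set of Etv5, KO arrays 1 and 3 stand well above the rest, at 6.14 and 5.28.

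The members varied widely between arrays. The range from the lowest to the highest of the 6 arrays was at least 2 for 4 of the 10 members, Dusp1, Dusp4, Dusp6 and Etv5, against 640 of all genes, 5.09%. The median range was 1.40 over members and 0.71 over all genes tested. The arrays that stood at the ends differed from gene to gene. WT array 3 was the highest for 5 members, against 19.2% of all genes, and KO array 3 the lowest for 4, against 22.6%. Relative to the WT mean of each gene, the median member stood at 0.34 on WT array 3 and at -0.41 on KO array 3. The same medians over all genes were -0.01 and -0.02. These are descriptions, since the genes were picked with results of these arrays known.

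**Figure D4:**
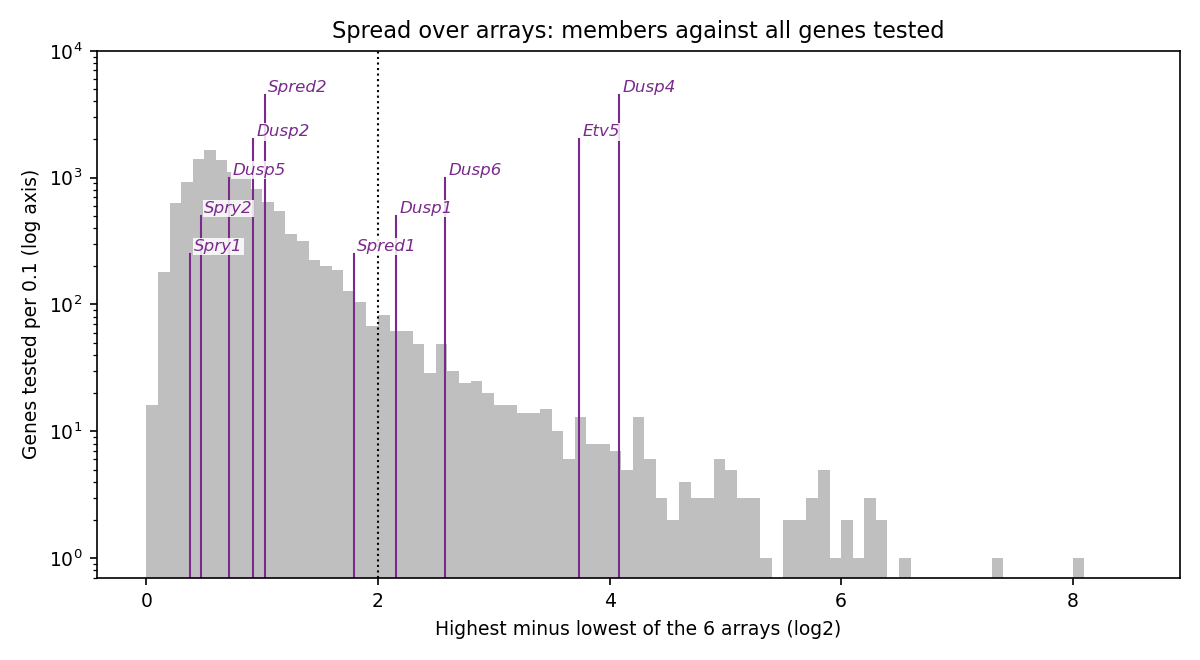
Range over the 6 arrays (highest minus lowest log2 signal) of all 12565 genes tested, as a histogram on a log axis, with the 10 members as purple lines and a dotted line at 2. Dusp1, Dusp6, Etv5 and Dusp4 lie to the right of the dotted line, at 2.16, 2.58, 3.74 and 4.08.

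For these 4 members the 12555 other tested genes were searched for those with the most similar profile, by the root mean square difference of the values over the 6 arrays after each gene was centred on its own mean. Dusp6 was matched most closely by Snn, the stannin gene, with a difference of 0.16, followed by Mxd4, whose product binds MAX, at 0.23 and Twsg1, a modulator of BMP signalling, at 0.28. Snn read 6.96, 6.85 and 6.79 in WT and 6.31, 5.97 and 4.33 in KO, the same order of arrays as Dusp6. Dusp1 was nearest to Rdm1, Dleu2 and Slc49a4, at 0.21, 0.23 and 0.23. Etv5 was nearest to Rbpms at 0.45, Bst1 at 0.57 and Iqch at 0.60, of which Rbpms read 5.37 and 4.71 on KO arrays 1 and 3 and at most 2.44 elsewhere. The measure is not scaled, so it tends to grow with the range of a gene. Dusp4, the member with the widest range, was nearest to Gpat3, Slc25a33 and Actn2, at 0.58, 0.61 and 0.65. All 3 of these were highest on WT array 3, at 5.77, 5.62 and 4.23.

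Other genes of the pathway were read from lists of named genes. Of 11 further DUSP, Sprouty and Spred genes 10 were tested, 7 with a higher and 3 with a lower KO mean, a median of 0.09 and 0 past the threshold; 7 of the 11 were low. The smallest p belonged to Spry4 at 0.32, Dusp8 at 0.25, Dusp22 at -0.42 and Spry3 at 0.26, and of these Dusp22 alone was not low. Each of the 4 was smaller without 1 array: Spry4 was 0.20 and Dusp22 -0.19 without WT array 3, Dusp8 0.13 without WT array 1 and Spry3 0.06 without KO array 3. Dusp10, which acts on p38 and JNK, read 10.40, 10.35 and 10.00 in WT and 10.28, 10.20 and 9.67 in KO; it was chosen after its values were seen. Of the RAS, RAF, MEK and ERK core, 7 of the 13 listed genes were analysed here. All 7 KO means were lower, beside 6522 of all 12565 genes, with a median of -0.25, only Ksr1 without overlap and 0 past the threshold. Braf had a difference of -0.64, Araf -0.45, the scaffold gene Ksr1 -0.34 and the MEK gene Map2k2 -0.23, with adjusted p between 0.672 and 0.734 by limma. The sizes were smaller with the mean over the probe sets of a gene, at -0.14 for Braf, -0.18 for Ksr1 and -0.08 for Map2k2. Without KO array 2 Ksr1 was -0.22 and Map2k2 -0.12, and after a further quantile normalization Araf was -0.29.

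Among 16 exchange factors, adaptors and RAS GTPase activators, a list that includes Sh2b3, 4 KO means were higher and 12 lower, with a median of -0.10 and 0 past the threshold. Ptpn11, the phosphatase SHP2 that passes receptor signals to RAS, read 8.86, 8.96 and 8.80 in WT and 8.27, 8.67 and 8.45 in KO. The groups did not overlap, the difference was -0.41 and the adjusted p was 0.634 by limma. Cbl, a ubiquitin ligase of activated receptors, had -0.29 and Rasa3, a RAS GTPase activator, -0.34, with overlap in both. Without KO array 3 these were -0.17 and -0.10.

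Other ERK-responsive transcripts gave 10 higher and 1 lower KO mean of 11 tested, with a median of 0.19 and 0 past the threshold. Over all 12565 genes 6043 KO means were higher. Several of the higher means on the list differed little and overlapped, with Egr1 at 0.14 and Ier2, Myc and Mcl1 at 0.11 each. Etv4 and Fosl1 were low and not tested. Fos, a subunit of AP-1, read 2.98, 2.43 and 2.72 in WT and 4.90, 5.54 and 4.58 in KO, without overlap (difference 2.30, adjusted p = 0.221 by limma). With WT arrays 1 and 2 averaged its adjusted p by limma was 0.943, within a range of 0.0678 to 0.984 over its alternatives. Junb, another AP-1 subunit, read 2.93, 2.97 and 3.03 in WT and 3.46, 3.97 and 3.26 in KO, a difference of 0.59 without overlap that was 0.38 without KO array 2. For Dusp1, Fos and Junb alike KO array 2 was the highest of the 6. Egr3, an early growth response factor, read 2.04, 1.62 and 1.73 in WT and 4.49, 4.81 and 2.01 in KO, a difference of 1.97. Its WT mean of 1.80 lay below the filter cut of 2.04, so it was tested only through KO arrays 1 and 2. Without KO array 3, which read like WT, the difference was 2.85 with a limma adjusted p of 0.0452, past the threshold. That call rests on the same 2 KO arrays that carried the gene through the filter. Over its alternatives the adjusted p of Egr3 by limma lay between 0.0452 and 0.984. With the mean over its probe sets the difference was 0.97. Ccnd1, the cyclin D1 gene, was the 1 lower member, at 8.33, 8.48 and 3.80 in WT and 3.01, 4.76 and 2.27 in KO. WT array 3 lay within its KO range, and without that array the difference went from -3.52 to -5.06 with a limma adjusted p of 0.0313, past the threshold; its alternatives lay between 0.0313 and 0.984. That fit sets the KO arrays against the near-identical WT arrays 1 and 2, and with these averaged the difference was -2.76.

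Markers of other cells were read on the same arrays, as the log2 of their summed signal. The 5 B cell markers measured had higher KO means in 5 of 5 and sums of 6.37 to 7.26 in WT and 6.35 to 8.42 in KO; Cd79a and Pax5 were low. The sum was highest on KO array 2, at 8.42, where Dusp1 was highest too, and lowest on KO array 3, at 6.35, where Dusp1 at 5.38 still lay above every WT array. The 8 myeloid markers had 6 higher KO means and sums of 11.31 to 11.56 in WT and 11.50 to 11.72 in KO, with Itgam and Cd14 low. These sums came mostly from S100a8, between 10.97 and 11.30. Csf1r ran from 7.14 to 9.20, and Mpo, with a lower KO mean, differed by -1.06. Erythroid and platelet markers summed to 7.63 to 7.94 in WT and 7.27 to 9.19 in KO, again highest on KO array 2; of the 4 measured Hba-a1 was low. Endothelial and stromal markers ran from 8.34 to 10.76 in WT and from 6.49 to 9.26 in KO, mostly through Pdgfrb, with Cdh5, Kdr, Col1a1 and Col3a1 low. The 9 T lineage markers include Notch1, between 11.74 and 12.42, and every leukemia carried a NOTCH1 transgene. Whether this probe set reads the transgene was not tested. The 9 markers summed to 14.25 to 14.61 in WT and 14.08 to 14.55 in KO. The sum was lowest on KO array 3, where Dusp6 and Dusp2 were lowest too. WT array 3 had a sum of 14.25, below the 14.55 and 14.47 of KO arrays 1 and 2. Dusp6 and Dusp2 on WT array 3, at 6.96 and 7.93, still lay above every KO array. The part of these cells in the differences of the members was not tested.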

How the data were processed

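Leukemia RNA, 10 ng for each of the 6 samples, was amplified with a whole-transcriptome kit, labelled with biotin and hybridised to 1-colour arrays, per the labels' protocols. The deposited values are log2 signals of 45101 probe sets. They were made by the authors with GCRMA, per the submitters' processing notes, with version and settings not given in the sources used here; log base 2 was inferred from their range. Array medians lay between 2.26 and 2.36, and the number of arrays limits the precision.

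Of the probe sets 34958 had 1 platform symbol and were used. Names were updated through gene identifiers (34754 matched) to RefSeq, assembly GRCm38.p6, and promoter sequences come from RefSeq on that build. Each gene was represented by its probe set with the highest mean, and a gene was tested where that mean exceeded 2.04, the 40th percentile over all probe sets. KO minus WT was fitted with limma 3.58.1 in R 4.3.3 (lmFit, eBayes with trend, two-sided) and adjusted over all genes by Benjamini-Hochberg at 0.05. The fit was tested on simulated data.

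Every member is named, with Sh2b3, the 3 nearest profiles of members with a range of at least 2, and, for each list, genes past the threshold or otherwise the 4 of smallest p. The members and lists were chosen with earlier results of these data known. Alternatives were another filter on low values, no trend in the prior, renormalized values, weighted arrays, the replicate block, each array left out, WT arrays 1 and 2 averaged, the probe set rule and the threshold. The values are logarithms already, so no pseudocount was used.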

Additional observations from a re-analysis of the deposited data

How the results depend on the processing

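Over all 16 alternatives 0 members passed the threshold by limma. Only 8 members were tested with the filter at the 60th percentile and 9 with the mean over probe sets. The count of genes past it was 0 with all arrays, 1 with array weights, and 0 to 51 with 1 array left out (51 without WT replicate 3, 3 without KO replicate 1 and 1 without KO replicate 3). Dusp1, Dusp2, Dusp6 and Etv5 kept their direction in 15 of 15 alternatives, in ranges of 0.79 to 1.32, -0.58 to -0.18, -1.84 to -0.98 and 0.45 to 2.46; at an unadjusted p under 0.05, Dusp1 was lost without WT replicate 2, and Dusp2 was added without KO replicate 1 and Etv5 without KO replicate 2. The direction of 6 members turned. With array weights Dusp4 was 0.19, Dusp5 0.08, Spry1 0.00 and Spred2 0.07; Dusp5 was 0.13 after quantile normalization, Spry2 0.05 with WT replicates 1 and 2 averaged, and Spred2 0.02 with the mean over probe sets. With 1 array left out the ranges were -1.14 to 0.75 for Dusp4, -0.21 to 0.16 for Dusp5, -0.16 to 0.03 for Spry1, -0.11 to 0.12 for Spry2, -0.73 to 0.00 for Spred1 and -0.33 to 0.13 for Spred2. The cause was not tested. The median of the members ran from -0.28 to 0.04. Replicate numbers did not pair the arrays (correlations of deviations -0.019, 0.085 and -0.035 for numbers 1, 2 and 3), and with the replicate block 0 members and 0 genes passed, with adjusted p of 0.687 for Dusp1 and 0.666 for Dusp6. Low signal limits what can be read for Spry1 and Spry2.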
